A study of Arundinella anomala and Arundinella fluviatilis and Arundinella hirta with 8 samples.

Results

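The genes described here had at least 50 FPKM in 4 grass leaf libraries and were listed at 0 in 3 others. The C4 form of PEP carboxylase (GRMZM2G083841) met the same conditions in these libraries. PEP carboxylase captures bicarbonate in the mesophyll of C4 leaves and makes the first acid of the C4 cycle, oxaloacetate. This is converted to malate or aspartate, which move to the bundle sheath or comparable cells, where CO2 is released beside Rubisco, the enzyme of the Calvin cycle. In maize the C4 form is known as one of the most abundant leaf transcripts, while other members of its family serve tasks outside photosynthesis.

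A gene was a member when it had at least 50 FPKM in each of *Arundinella anomala*, *Arundinella fluviatilis*, *Arundinella pubescens* and *Imperata cylindrica* and exactly 0 in *Arundinella hirta*, *Bothriochloa ischaemum* and *Capillipedium parviflorum*. FPKM are fragment counts scaled by the length of the sequence and the size of the library. Of 26274 genes, 123 met this rule besides PEP carboxylase itself, which was left out. The rule read 7 of the 8 libraries, so the levels in those 7 are a description and were not tested. The library of *Arundinella nepalensis* was not read by the rule.

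The series holds 1 library for each of 8 C4 grass species, made from mature whole leaves (the 3rd leaf) of wild-type plants, all grown at 22°C with 16 h of light and 8 h of dark. With no second library of any species, no difference has a replicate check, and no test between species was possible. The values were deposited as FPKM under maize protein models and were summed here per maize gene. Where a grass gene has diverged from its maize counterpart its value may be low or 0 for that reason, so 0 is given here as a listing, not as absence. The files pair the identifiers with no gene names or descriptions, so the members are given by identifier and no role is stated for them.

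The libraries differed in how much they listed. *A. nepalensis* had 18023 genes above 0, against 20388 to 20607 in *A. anomala*, *A. fluviatilis* and *A. pubescens*. *I. cylindrica* had 10198 genes above 0, and the 3 libraries in which the rule asks for 0 had 8142 to 10697. The summed FPKM ranged from 212357 in *C. parviflorum* to 829005 in *A. pubescens*. No counts are given, so the sequencing depth is unknown. A pair of gene models recalled as leaf genes was above 0 in all 8 libraries, though their identity could not be looked up in the files. The model recalled as the triose phosphate translocator (GRMZM2G070605) lay between 857 FPKM in *A. nepalensis* and 3538 FPKM in *A. pubescens*. The model recalled as a Rubisco small subunit (GRMZM2G113033) lay between 35.8 FPKM in *I. cylindrica* and 11028 FPKM in *A. nepalensis*.

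The floor of the rule gave the members moderate to high levels. Their medians were far below PEP carboxylase in the libraries that chose them. Their median was 130 FPKM in *A. anomala*, 134.5 FPKM in *A. fluviatilis*, 127 FPKM in *A. pubescens* and 112 FPKM in *I. cylindrica*. In those libraries PEP carboxylase was at 2285, 24807, 7380 and 11746 FPKM, and it was the highest gene of all in *A. fluviatilis* and *I. cylindrica*. No member exceeded it in any of the 4 libraries. The nearest was GRMZM2G170400 in *A. anomala*, at 1638 FPKM against 2285 FPKM, a log2 ratio of −0.48. The highest member by mean over the 4 libraries reached 2162 FPKM, and the mean of PEP carboxylase was 5.35 times that. All members together made up 6.06% of the summed FPKM of *I. cylindrica*, 3.67% of that of *A. fluviatilis*, 3.05% of that of *A. pubescens* and 3.01% of that of *A. anomala*. PEP carboxylase alone made up 3.36%, 3.05%, 0.890% and 0.285% of those sums. The shares depend on the totals, which were 349576 FPKM in *I. cylindrica* and 801500 to 829005 FPKM in the 3 *Arundinella* libraries. The members themselves summed to 21169 FPKM in *I. cylindrica*, less than the 24137 to 29871 FPKM in those 3.

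Being at 0 in the 3 remaining libraries was not rare for genes of this level. Of the 444 genes with at least 50 FPKM in the 4 libraries, PEP carboxylase left out, the 123 members are 27.7%. Of all genes in the table, 10016, or 38.1%, were at 0 in the same 3 libraries. Because the rule uses these values, the shares only describe how the members were picked. Among the 321 genes that reached 50 FPKM in the 4 libraries and were not members, 26.2% were at 0 in *A. hirta*, 37.7% in *B. ischaemum* and 44.5% in *C. parviflorum*.

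**Figure D1:**
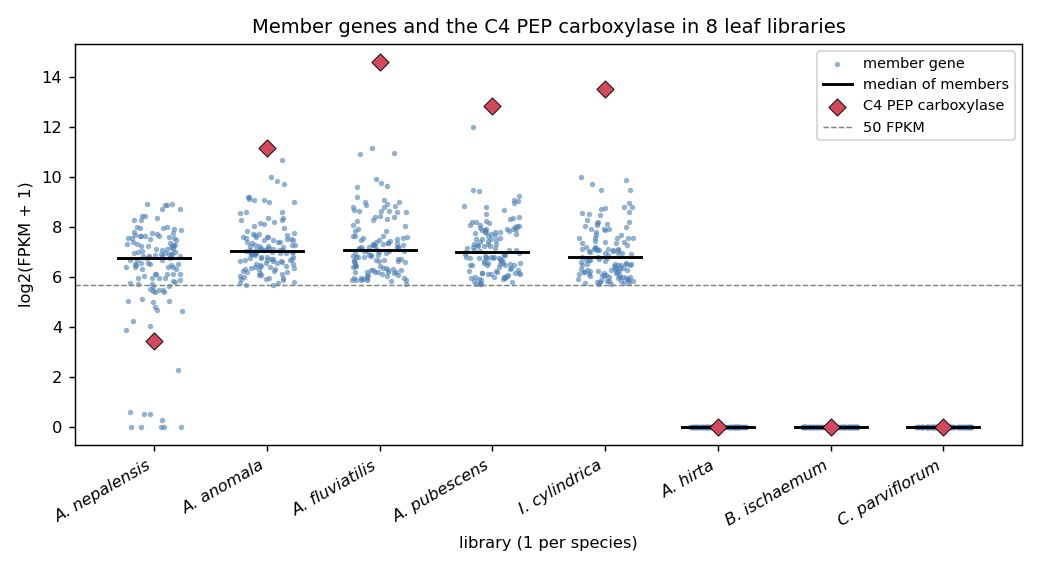
Level of each of the 123 members (points), their median (black bar) and the C4 PEP carboxylase (diamond) as log2(FPKM + 1) in 8 libraries, 1 per species, with the 50 FPKM floor of the rule as a dashed line. In *A. nepalensis* 95 of the 123 members (77.2%) reach 50 FPKM, as do 76.6% of 321 other genes chosen by the same floor. There 60 members (48.8%) lie below all 3 other high *Arundinella* libraries, as do 48.9% of those other genes. PEP carboxylase, at 10.02 FPKM in *A. nepalensis*, lies below the member median of 109 FPKM.

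In *A. nepalensis*, the library left out of the choice, most members were listed above 50 FPKM, as were most other genes chosen by the same floor, and PEP carboxylase was not. The median member was at 109 FPKM there, the lowest was listed at 0 and the highest was at 484 FPKM. At least 50 FPKM was reached by 95 of 123 members (77.2%), and 66 reached 100 FPKM. PEP carboxylase was at 10.02 FPKM, and 113 of the 123 members were above it. The 321 non-members also had a median of 109 FPKM there. The counts above 100 FPKM and above PEP carboxylase were not made for them, so neither is read as a trait of the members. By level PEP carboxylase was 10267th among the genes of this library, against 21st in *A. anomala* and 7th in *A. pubescens*. In whole leaves, fewer cells of a type and less RNA per cell cannot be told apart. The members made up 2.28% of the summed FPKM of *A. nepalensis* and PEP carboxylase 0.00143%.

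The share of members reaching 50 FPKM in *A. nepalensis* was near that of other genes picked by the same floor. Among the 321 non-members, 246 (76.6%) reached it. Over all 20528 genes that averaged at least 1 FPKM in the 3 congeners, 14.2% did. Split by the number of low libraries at 0, the share reaching 50 FPKM was 80.2% for 116 non-members at 0 in 2 of them, 75.9% for 116 at 0 in 1 and 73.0% for 89 at 0 in none. Under 1 FPKM in *A. nepalensis* were 9 members (7.32%), against 6.54% of the non-members and 26.9% of the 20528 genes.

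**Figure D2:**
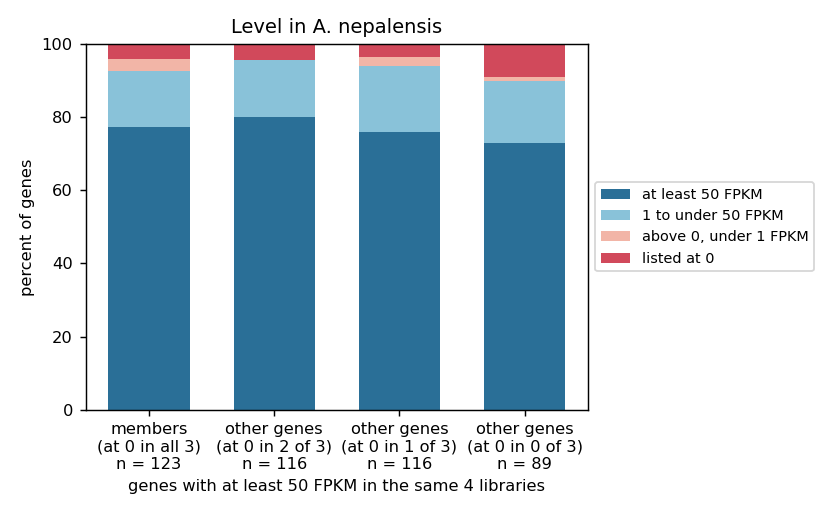
Percent of genes at 4 ranges of FPKM in *A. nepalensis*, for the members and for other genes with at least 50 FPKM in the same 4 libraries, split by how many of the 3 low libraries list them at 0. The top range holds 77.2% of the members and 73.0% to 80.2% of the other genes.

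Set against the mean log2(FPKM + 1) of *A. pubescens*, *A. fluviatilis* and *A. anomala*, the median member was 0.43 log2 units lower in *A. nepalensis*, (−0.43), with quartiles of −1.40 and 0.26. The median non-member had a difference of −0.56, and the median over the 20528 genes was −0.28. The summed FPKM was 701722 in *A. nepalensis*, against 801500 to 829005 in the 3 congeners. With each library rescaled to the same sum, 225 genes met the rule and their median difference was −0.22. The floor applied to the 3 congeners and not to *A. nepalensis*, for members and non-members alike, and this asymmetry favours lower values in *A. nepalensis*. The difference was under 1 log2 unit in size for 68 members (55.3%) and for 55.1% of the non-members. *A. nepalensis* lay below all 3 congeners for 60 members (48.8%), 48.9% of the non-members and 32.2% of the 20528 genes. It lay above all 3 for 22 members (17.9%), 15.9% of the non-members and 26.1% of the 20528 genes, and between them for the other 41 members.

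At least 4-fold lower in *A. nepalensis* were 19 members (15.4%), against 20.9% of the non-members and 16.4% of the 20528 genes. At least 4-fold higher were 3 members (2.44%), against 1.56% of the non-members and 7.62% of the 20528 genes. The share that was 4-fold lower is given by the level in the congeners as a description only, since that level enters the difference itself and a high one favours a lower *A. nepalensis*. Among members averaging 200 FPKM or more there it was 12 of 37 (32.4%), and among those below it was 7 of 86 (8.14%). Non-members split in the same way, a split chosen after seeing the data, had 29.1% and 13.5%. Of the members, 6.50% averaged at least 500 FPKM in the congeners, against 18.1% of the non-members, so the 2 sets of genes were not of the same level.

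The difference of PEP carboxylase was −9.41, and that of every member was smaller in size. This order mostly follows from level: with 1 FPKM added, a member at 0 in *A. nepalensis* falls by no more than its mean log2 level in the congeners, and for only 3 of the 123 members could that reach the size of the PEP carboxylase difference. Among all 445 genes with at least 50 FPKM in the 4 libraries, PEP carboxylase included, 5 had a more negative difference, and none of these was a member.

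**Figure D3:**
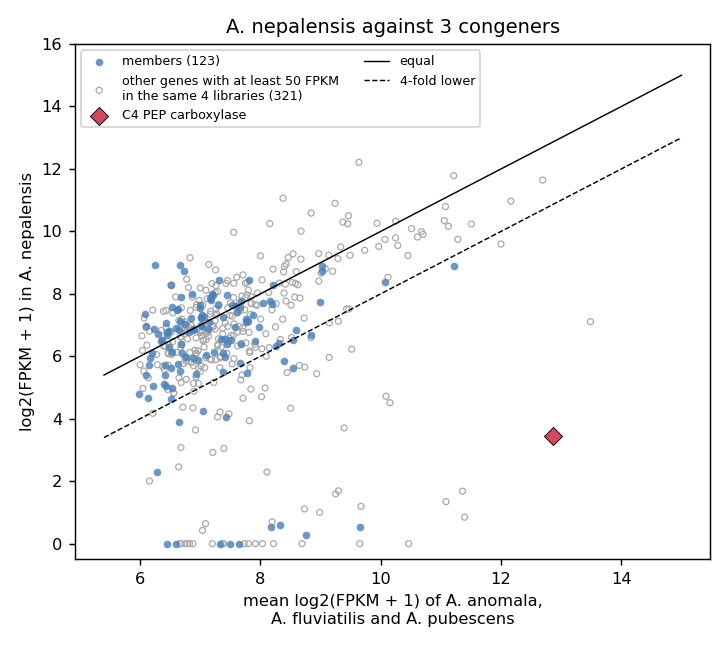
Level in *A. nepalensis* (vertical) against the mean of *A. pubescens*, *A. fluviatilis* and *A. anomala* (horizontal), both as log2(FPKM + 1), for the 123 members (filled), 321 other genes with at least 50 FPKM in the same 4 libraries (open) and PEP carboxylase (diamond). Of the members, 55.3% lie within 1 log2 unit of the line of equal level, as do 55.1% of the other genes; 19 members lie at or below the 4-fold line, and PEP carboxylase has a difference of −9.41 log2 units from equality.

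The highest of the 9 members under 1 FPKM in *A. nepalensis* was at 0.52 FPKM there, and the next member, GRMZM2G154595, was at 3.87 FPKM. GRMZM2G305856 was at 0.45 FPKM in *A. nepalensis*, against 929 FPKM in *A. anomala*, 807 FPKM in *A. fluviatilis* and 706 FPKM in *A. pubescens*, and it was at 449 FPKM in *I. cylindrica*. Its log2 difference from the congeners of −9.13 came nearest to that of PEP carboxylase. GRMZM2G364145 was at 0.22 FPKM in *A. nepalensis*, against 595, 514 and 264 FPKM in the congeners, and at 841 FPKM in *I. cylindrica*. Both genes were among the 8 members with the highest mean over the 4 libraries of the rule, and *A. nepalensis* lay far below all 4 of them.

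GRMZM2G163809 was at 0.52 FPKM in *A. nepalensis*, against 330 FPKM in *A. anomala*, 544 FPKM in *A. fluviatilis* and 182 FPKM in *A. pubescens*, and at 245 FPKM in *I. cylindrica*. GRMZM2G167892 was at 0.44 FPKM in *A. nepalensis*, against 510, 99.2 and 463.5 FPKM in the congeners, and at 295 FPKM in *I. cylindrica*. In these 4 genes the *A. nepalensis* library held a small value above 0, and in the other 5 it listed 0.

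Of the 5 members at 0 in *A. nepalensis*, GRMZM2G123029 had the highest mean. It was listed at 0 in *A. nepalensis*, against 217, 157 and 233 FPKM in the 3 congeners, and was at 167 FPKM in *I. cylindrica*. GRMZM2G041275, at 0 in *A. nepalensis*, was at 206, 116 and 244 FPKM in the congeners and 108 FPKM in *I. cylindrica*. GRMZM2G154278, at 0 in *A. nepalensis*, was at 121, 194 and 176 FPKM in the congeners and 98.2 FPKM in *I. cylindrica*. The remaining 2, GRMZM2G059580 and GRMZM2G081155, averaged 91.4 and 89.2 FPKM over the 4 libraries of the rule. Whether these 5 genes lacked transcripts or differed in sequence was not tested. The 5 genes are 4.07% of the members, against 5.3% of the 321 non-members and 22.9% of the 20528 genes at 0 in *A. nepalensis*.

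A further 19 members (15.4%) lay between 1 and 50 FPKM in *A. nepalensis*, against 16.8% of the non-members and 58.9% of the 20528 genes. After GRMZM2G154595 the lowest were GRMZM2G134062 at 13.9 FPKM and GRMZM5G863645 at 15.48 FPKM. GRMZM5G863645 was at 102 FPKM in *A. anomala*, 384 FPKM in *A. fluviatilis* and 127 FPKM in *A. pubescens* and at 112 FPKM in *I. cylindrica*. It was lower in *A. nepalensis* than in each of those libraries.

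In the other direction, 3 members were at least 4-fold higher in *A. nepalensis* than the mean of the congeners. GRMZM2G399183 was at 482 FPKM in *A. nepalensis*, against 50.6 FPKM in *A. anomala*, 61.9 FPKM in *A. fluviatilis* and 133 FPKM in *A. pubescens*, and at 166 FPKM in *I. cylindrica*, a log2 difference from the congeners of 2.67. GRMZM2G166658 was at 484 FPKM in *A. nepalensis*, against 126, 58.4 and 136 FPKM in the congeners, and at 117 FPKM in *I. cylindrica*. It was the highest member in *A. nepalensis*, although in *A. fluviatilis*, at 58.4 FPKM, it was among the lower members. GRMZM2G077233 was at 425 FPKM in *A. nepalensis*, against 167, 73.3 and 94.4 FPKM in the congeners, and at 89.6 FPKM in *I. cylindrica*. In all 3 genes the *A. nepalensis* value lay above each of the 4 libraries that chose them.

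An average of at least 500 FPKM in the 3 congeners was reached by 8 members (6.5%). It was reached by 18.1% of the non-members and 0.765% of the 20528 genes. GRMZM2G170400 had the highest mean of all members and was at 475 FPKM in *A. nepalensis*, against 1638 FPKM in *A. anomala*, 1999 FPKM in *A. fluviatilis* and 4067 FPKM in *A. pubescens*, and at 942 FPKM in *I. cylindrica*. It was the highest member in *A. anomala* and in *A. pubescens*, and the lowest of its 5 values was that in *A. nepalensis*. GRMZM2G014902 was at 329 FPKM in *A. nepalensis*, against 1037, 1964 and 606 FPKM in the congeners, and at 420 FPKM in *I. cylindrica*. GRMZM2G138809, the highest member in *I. cylindrica* at 1032 FPKM, was at 101 FPKM in *A. nepalensis*, against 838, 469 and 241 FPKM in the congeners. For both genes *A. nepalensis* again held the lowest of the 5 values.

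GRMZM6G741210 did not share this. It was at 475 FPKM in *A. nepalensis*, against 261 FPKM in *A. anomala*, 983 FPKM in *A. fluviatilis* and 547 FPKM in *A. pubescens*, and at 711 FPKM in *I. cylindrica*, so that *A. nepalensis* lay within the range of its congeners. GRMZM2G415359 was at 210 FPKM in *A. nepalensis*, against 589, 870 and 257 FPKM in the congeners, and at 285 FPKM in *I. cylindrica*. Of the 8 members with the highest mean, 7 were lower in *A. nepalensis* than in every library of the rule, as were 53 of all 123 members (43.1%) and 43.0% of the non-members. The 8 were picked for high values in the libraries *A. nepalensis* is set against, so nothing is read from their count.

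The most uneven member was GRMZM2G155242. It was at 56.7 FPKM in *A. nepalensis*, against 66.3 FPKM in *A. anomala*, 2328 FPKM in *A. fluviatilis* and 244 FPKM in *A. pubescens*, and at 720 FPKM in *I. cylindrica*. Its highest value among the 4 libraries of the rule was 35.1 times its lowest, and it was the highest member in *A. fluviatilis*. PEP carboxylase had a range of 10.9-fold over those libraries, and GRMZM2G155242 was the 1 member whose range was as wide. The median member spanned 2.51-fold, 39 members spanned under 2-fold and 13 spanned at least 5-fold. These ranges were not computed for the non-members, so they only describe the members. The floor of 50 FPKM limits how wide the range of a weakly expressed member can be.

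No library of the rule held the highest value for most members. *A. fluviatilis* was highest for 40 members, *A. anomala* for 35, *A. pubescens* for 26 and *I. cylindrica* for 22. No such count was made for the non-members. The medians of the member differences between these libraries were small, from 0.06 log2 units for *A. anomala* minus *A. fluviatilis* to 0.29 for *A. fluviatilis* minus *I. cylindrica*. The SD of the difference over the members was 0.80 log2 units between *A. pubescens* and *I. cylindrica* and 0.86 between *A. anomala* and *A. pubescens*, the 2 smallest, and 1.12 between *A. anomala* and *A. fluviatilis*, the largest. These values were floored by the rule, and the SDs were not tested against each other. Between *A. nepalensis* and each of the 4 libraries the SD was 2.21 to 2.34, where the rule set no floor in *A. nepalensis*. For non-members the SDs among the 4 libraries were 0.94 to 1.23, with 0.94 between *A. anomala* and *A. pubescens* and 1.02 between *A. pubescens* and *I. cylindrica*, and 2.50 to 2.67 against *A. nepalensis*.

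Likeness to PEP carboxylase was measured as the SD, over *A. nepalensis* and the 4 libraries of the rule, of the log2 ratio of member to PEP carboxylase, each with 1 FPKM added. A constant ratio gives 0. The median SD was 4.30 for the members and 4.30 for the non-members. For a gene of even level the SD follows PEP carboxylase itself, at 10.02 FPKM in *A. nepalensis* and 24807 FPKM in *A. fluviatilis*. Both medians were therefore largely set by PEP carboxylase, and the rule read 4 of the 5 libraries. No conclusion is drawn from them. The median member was 4.13 log2 units below PEP carboxylase in *A. anomala*, with a log2 ratio of −4.13, and its log2 ratio was −5.85 in *A. pubescens*, −6.70 in *I. cylindrica* and −7.52 in *A. fluviatilis*. In *A. nepalensis* the median log2 ratio was 3.32, with the members above PEP carboxylase.

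The members most like PEP carboxylase were GRMZM2G364145 (SD of the log2 ratio 1.42), GRMZM2G163809 (1.45), GRMZM2G305856 (1.48), GRMZM2G154278 (1.57) and GRMZM2G123029 (1.69). All 5 were among the 9 members under 1 FPKM in *A. nepalensis*, so the measure mostly reads the low value there. Several non-members had smaller SDs than any member, from 0.24 for GRMZM2G122337 to 1.41 for GRMZM2G085646. The genes nearest to PEP carboxylase by this measure were therefore not members. Over the 4 libraries of the rule alone, the 5 most alike members were different ones, led by GRMZM2G061876 (SD 0.54) and GRMZM6G741210 (SD 0.64). GRMZM2G061876 was at 91.2 FPKM in *A. nepalensis*, against 164 FPKM in *A. anomala*, 780 FPKM in *A. fluviatilis* and 405 FPKM in *A. pubescens*, and at 429 FPKM in *I. cylindrica*. Among the 4 libraries of the rule it was, like PEP carboxylase, highest in *A. fluviatilis* and lowest in *A. anomala*. GRMZM2G061876 was picked for the smallest SD over these same libraries, so the shared order is a description only. The members least like PEP carboxylase were the 3 that were at least 4-fold higher in *A. nepalensis*, with SDs of 5.47 to 5.52.

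**Figure D4:**
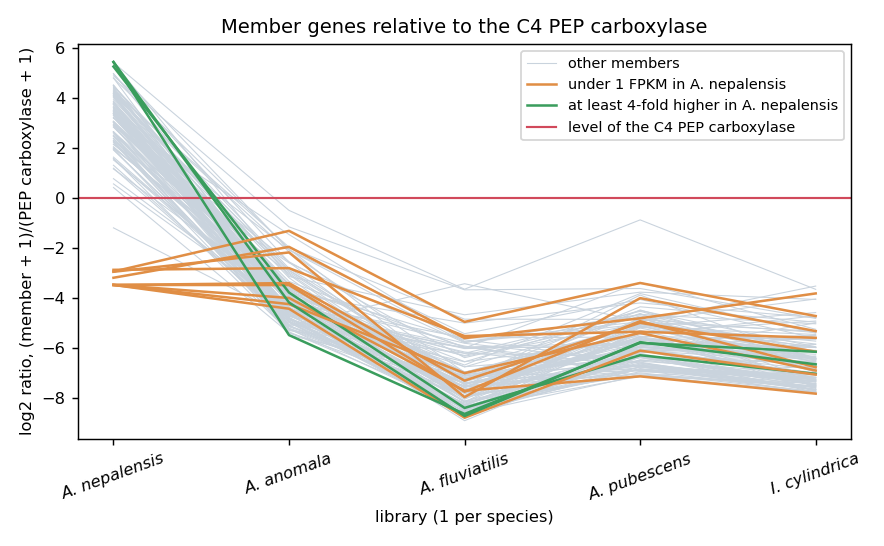
Log2 ratio of each member to the C4 PEP carboxylase, each with 1 FPKM added, in *A. nepalensis* and the 4 libraries of the rule. The 9 members under 1 FPKM in *A. nepalensis* (orange) stay below PEP carboxylase in all 5 libraries, while 113 members lie above it in *A. nepalensis* and 0 do in the other 4. These counts were not made for the non-members.

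A C4 list was set beside the rule. The list holds 14 maize gene models besides PEP carboxylase, recalled from general knowledge as enzymes and transporters of the C4 cycle; their identities could not be looked up in the files. Of the 14, 3 reached 50 FPKM in all 4 libraries (GRMZM2G085019, GRMZM2G097457 and GRMZM2G070605), 1 was at 0 in all 3 low libraries (GRMZM2G383088) and 0 did both. Of all genes in the table, 1.69% met the first condition, 38.1% the second and 0.468% both, so a count of 0 in 14 genes says nothing about the list. GRMZM2G085019 missed the rule by a single value. It was at 1.54 FPKM in *A. nepalensis*, against 1985 FPKM in *A. anomala*, 3043 FPKM in *A. fluviatilis* and 1695 FPKM in *A. pubescens*, and at 4049 FPKM in *I. cylindrica*, while *B. ischaemum* had 7.97 FPKM and *A. hirta* and *C. parviflorum* had 0. GRMZM2G383088 missed it through *I. cylindrica*, where it was at 0. It was at 8.64 FPKM in *A. nepalensis*, against 122, 829 and 177 FPKM in the congeners.

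Genes close to the floor showed that the edge of the set was not a gap. Just inside it were GRMZM2G177005, GRMZM2G399183 and GRMZM2G029845, whose lowest values among the 4 libraries were 50.55, 50.58 and 51.2 FPKM. Just outside it were GRMZM2G703490, GRMZM2G024484 and GRMZM2G426591, at 49.8, 49.5 and 49.3 FPKM. In *A. nepalensis* the 3 inside were at 151, 482 and 33.6 FPKM, and the 3 outside at 0, 0 and 84.2 FPKM. Genes that had at least 50 FPKM in the 3 congeners and 0 in the 3 low libraries but did not reach 50 FPKM in *I. cylindrica* numbered 198. Of these, 138 were at 0 in *I. cylindrica*, and 66.7% of the 138 reached 50 FPKM in *A. nepalensis*, against 77.2% of the members. The other 60 were above 0 in *I. cylindrica*, and 39 of them reached it, a share slightly below that of the 138. The median of the congener mean was 119 FPKM for the 138 and 82.8 FPKM for the 60, against 147 FPKM for the members. Because the sets differ in level, a link between listing in *I. cylindrica* and level in *A. nepalensis* was not tested.

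More than 1 protein model was summed for 55 members (44.7%), against 54.2% of the non-members and 27.8% of all genes. In 38 of the 55 the same model held the highest value in all 4 libraries of the rule, and in 17 the leading model differed between libraries. In *A. nepalensis* the leading model was one that also led in a library of the rule for 49 of the 55, another model for 3, and 3 were at 0. Leading models were compared for the members only, so these counts have no share of other genes beside them. Identifiers of 117 members (95.1%) occur in the deposited cross-reference, against 95.7% of all genes, and no locus identifier there was shared by 2 members.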

How the data were processed

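Leaf RNA of 8 grass species was sequenced, 1 library per species, from total RNA with a TruSeq kit, per the labels' protocols. The authors deposited FPKM on maize protein models in 1 table of 36698 lines. RSEM was used, per the submitters' processing notes; its version, the aligner and the build are not stated in these sources. Because RSEM estimates how fragments split between like sequences, values can shift between genes of a family. A table of identifiers served as cross-reference.

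Columns were matched to species by name. Protein models were summed to 26274 genes with Python 3.11.15, numpy 2.4.6 and pandas 2.3.3, and figures drawn with matplotlib 3.10.9. Fold changes were computed on log2(FPKM + 1), and this scale makes those of low genes too small. Each species has 1 library, so no test was run. The code that applies the rule was checked on a shuffled table with planted genes; this is no test of the members. The members and lists were chosen with earlier results of these data known. Named genes are the 8 members with the highest mean, the 5 highest in *A. nepalensis*, the 3 highest listed at 0 there, the 5 most and 3 least like PEP carboxylase, the 3 on each side of the floor, the highest in each library, and the C4 list. The other members under 1 FPKM in *A. nepalensis*, the lowest above that, GRMZM2G061876 and the genes of the closing observations were named after their values were seen. Alternatives changed the floor, the joining of models, the scale, the pseudocount, the fold and the libraries used.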

Additional observations from a re-analysis of the deposited data

How the results depend on the processing

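The number of members depends on the rule's settings. It was 438 with a floor of 20 FPKM, 41 with 100 FPKM and 225 with each library rescaled to the same sum of 1000000. With each library left out of the rule in turn it ran from 129 to 321, with 321 when *I. cylindrica* and 187 when *A. hirta* was left out. With under 1 FPKM in place of 0 it was 131, and with only the top protein model of each gene it was 112. The share of members with at least 50 FPKM in *A. nepalensis* was 54.6% with a floor of 20 FPKM for the members, 89.4% with a threshold of 20 FPKM in *A. nepalensis* and 53.7% with 100 FPKM; with libraries left out of the rule it was 70.4% to 78.8%. The share listed at 0 was 3.29% to 6.85% with libraries left out. The share at least 4-fold lower in *A. nepalensis* was 26.8% with a floor of 100 FPKM for the members and 14.2% to 18.4% with libraries left out; it was 37.4% at 2-fold and 8.94% at 8-fold. The median log2 difference was −0.13 with a floor of 20 FPKM and −1.06 with 100 FPKM, −0.22 with each library rescaled, −0.53 to −0.29 with libraries left out of the rule and −0.56 to −0.40 with a congener left out of the mean. It was negative in every setting run. In the main setting it was also negative for the non-members (−0.56) and for the 20528 genes (−0.28), so the sign is not particular to the members. Of the 5 members most like PEP carboxylase, 5 were shared with a pseudocount of 0.1 and 0 when *A. nepalensis* was left out. No paired analysis was possible because each species has 1 library and the libraries carry no replicate numbers. Sequencing depth is unknown, so low values cannot be given a counting error.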

Other observations

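Among all genes with at least 50 FPKM in the 4 libraries of the rule, the one whose ratio to PEP carboxylase was steadiest was not a member. GRMZM2G122337 was listed at 0 in *A. nepalensis*, against 224, 2522 and 915 FPKM in *A. anomala*, *A. fluviatilis* and *A. pubescens*, and was at 916 FPKM in *I. cylindrica*. Its log2 ratio to PEP carboxylase was −3.46 in *A. nepalensis*, −3.34 in *A. anomala*, −3.01 in *A. pubescens*, −3.30 in *A. fluviatilis* and −3.68 in *I. cylindrica*, an SD of 0.24. The lowest SD among the members was 1.42. In the 3 libraries that list PEP carboxylase at 0, GRMZM2G122337 was at 2379 FPKM in *A. hirta*, 3162 in *B. ischaemum* and 1182 in *C. parviflorum*. The gene was picked as the extreme of 444 genes over 5 libraries, and the ratio in *A. nepalensis* rests on the pseudocount.

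The 5 genes with a more negative difference in *A. nepalensis* than PEP carboxylase were GRMZM2G122337 and 4 others. GRMZM2G149428 was at 0.80 FPKM in *A. nepalensis*, against 1106, 3181 and 5536 FPKM in *A. anomala*, *A. fluviatilis* and *A. pubescens*, and it was at 2682 FPKM in *A. hirta*. GRMZM2G085646 was at 0 in *A. nepalensis*, against 1025, 1070 and 2566 FPKM in the congeners, and at 2226 FPKM in *A. hirta*. GRMZM2G158394 was at 2.21 FPKM in *A. nepalensis*, against 1851, 4849 and 2013 FPKM in the congeners, and at 10757 FPKM in *A. hirta*. The remaining gene was GRMZM2G085019 of the C4 list. In the 3 libraries that list every member at 0 these genes were mixed. GRMZM2G149428 was at 1901 FPKM in *B. ischaemum* and 0 in *C. parviflorum*, GRMZM2G085646 at 0 and 2115 FPKM there, and GRMZM2G158394 at 15.7 and 3.10 FPKM. GRMZM2G085019 was at 0 in *A. hirta* and *C. parviflorum* and at 7.97 FPKM in *B. ischaemum*.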
